A study of Mus musculus with 6 samples.

Results

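Cell death genes of the thymus were examined in CD4+CD8+ double-positive (DP) thymocytes that carried a Sox13 transgene. The 8 genes were chosen by symbol for their known roles in thymocyte survival: Bcl2, Bcl2l1, Mcl1, Bax, Bak1, Bcl2l11, Bad and Fas. Earlier results of these data were known when they were chosen. All probe sets (short oligonucleotide groups that read 1 or more transcripts) that the platform annotation gives to exactly 1 of these symbols were taken. They numbered 23 of the 25470 probe sets used, with 7 on the Mu11K A array, 3 on Mu11K B and 13 on U74Av2, and they covered 7 of the 8 genes. Bax, the pore-forming partner of BAK1, was not analysed here.

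The transgenic group was DP thymocytes of Sox13 transgene-positive C57BL/6 mice, and the other group was DP thymocytes of wild-type C57BL/6 littermates. The mice of both groups were female and 6 weeks old, and their cells were sorted by flow cytometry and lysed at once with no further treatment. Each sort pooled the thymocytes of at least 2 mice. The promoter that drives the transgene, the number of founder lines and the zygosity are not given in the labels or the series text. Experiment 1 was run on Mu11K A with Mu11K B, whose probe sets differ, and experiment 2 on U74Av2, with 1 transgenic and 1 wild-type sample on each array type, so there were 6 samples, 3 per genotype. The A and B arrays were counted as 1 experiment. Nothing in the labels says whether the experiments used separate mice, so the spread between the 2 experiments may be partly technical.

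DP thymocytes are short-lived cells that die unless their T cell receptor delivers a moderate signal. Whether such a cell lives is set in large part by the BCL2 family. The anti-apoptotic members BCL2, BCL-XL (encoded by Bcl2l1) and MCL1 hold the effectors BAX and BAK in check, and BH3-only proteins such as BIM (encoded by Bcl2l11) and BAD release that hold. Once active, BAX and BAK open the outer mitochondrial membrane, cytochrome c leaves and caspases are cleaved. BCL-XL is the main survival protein of DP cells, where BCL2 is low, and BIM is needed for the death of many self-reactive thymocytes. FAS is a surface receptor that starts caspase activation from outside the mitochondrion. Sox13 encodes an HMG-box transcription factor linked to gamma-delta T cells. HMG-box proteins of the SOX family bind sequences close to AACAAT, and TCF1 and LEF1, which also carry an HMG box, bind sequences with the core CAAAG.

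RefSeq gives 12 start-site windows for the 8 genes on GRCm38.p6, and the 250 bases before each start were searched for both letter strings on both strands. AACAAT stood in 1 of the 12 windows, and the share over all 32851 such windows of the table was 9.42%. CAAAG stood in 5 of the 12 windows, and its share over all windows was 48.6%. The strings do not overlap each other in a window printed here, a match is a description of letters only, and no binding was measured. The windows of 3 genes are shown, in the direction of the gene and with matches in capitals. Bcl2l11 has the window with AACAAT, at chr2:128127325-128127574 on the plus strand. Fas, which had the lowest ratio of transgenic to wild type, lies at chr19:34290409-34290658 on the plus strand and has CAAAG at 2 places. Bak1, which had the highest mean ratio, lies at chr17:27028628-27028877 on the minus strand and holds neither string in this window. The other windows with CAAAG belong to Bcl2l1, Bax and Bad, and the window of Mcl1 holds neither string. Mean log2 ratios were 0.40 for Bcl2l1, 0.33 for Bad and -0.18 for Mcl1. A link between the strings and the ratios was not tested.
Bcl2l11: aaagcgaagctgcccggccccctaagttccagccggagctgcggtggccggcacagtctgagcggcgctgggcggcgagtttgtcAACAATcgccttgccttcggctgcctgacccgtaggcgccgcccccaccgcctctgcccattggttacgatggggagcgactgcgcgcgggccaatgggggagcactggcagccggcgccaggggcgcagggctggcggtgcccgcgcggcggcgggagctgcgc
Fas: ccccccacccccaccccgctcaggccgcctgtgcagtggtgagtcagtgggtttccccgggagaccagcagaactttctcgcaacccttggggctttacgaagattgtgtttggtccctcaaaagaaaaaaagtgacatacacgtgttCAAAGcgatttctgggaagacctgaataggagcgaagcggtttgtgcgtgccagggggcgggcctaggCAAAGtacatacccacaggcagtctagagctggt
Bak1: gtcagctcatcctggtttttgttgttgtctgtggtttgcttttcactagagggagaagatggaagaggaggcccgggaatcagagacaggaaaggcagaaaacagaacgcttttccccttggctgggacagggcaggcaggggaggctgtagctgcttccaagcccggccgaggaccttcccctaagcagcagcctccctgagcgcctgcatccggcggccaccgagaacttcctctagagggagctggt

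Values below are scaled intensities: the deposited linear intensities of each array were scaled to a 2% trimmed mean of 500, and values under a floor of 100 were set to 100. A probe set's intensity depends on its own sequences, so levels are compared between genotypes within a probe set, never between probe sets or genes. Between 46.9% and 57.4% of an array's probe sets lay above the floor. In experiment 1 Sox13 itself stood at 5951 in transgenic cells, while wild-type cells were under the floor, so it was at least 59.5-fold higher, and at 3832 in transgenic against 599.6 in wild-type cells in experiment 2, which is 6.39-fold. Sox13 thus went with the labels in both experiments, and it passed limma's test (mean log2 ratio 4.29 ± 0.56, limma's SE, adjusted p = 0.00543). Ratios spread more widely in experiment 1: over the 3237 genes measured in both experiments, the SD of log2 ratios across genes was 0.78 in experiment 1 and 0.33 in experiment 2. These genes had median log2 ratios of -0.05 and -0.02.

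Markers of the sorted cell type were present. Of the DP markers, 9 of 9 in experiment 1 and 10 of 10 in experiment 2 were above the floor in both genotypes, and their summed level was 54440 in transgenic and 63599 in wild-type cells in experiment 1, and 110385 in transgenic and 116983 in wild-type cells in experiment 2. Of these markers 7 of 9 were lower in transgenic cells in experiment 1, with a median log2 ratio of -0.37. Rag2 was lowest there at -2.02, while Ptcra (1.61) and Cd3e (0.42) were higher. In experiment 2, 6 of 10 were lower, with a median of -0.03. Ptcra (0.58), Rag1 (0.30), Rag2 (0.08) and Cd8b1 (0.05) were higher in that experiment. Sums of the markers of other cells differed between the transgenic and wild-type samples to varying degrees. They were not tested, with 1 sample per genotype on each array type. Of these markers only Dtx1, Hba-a1 and Hbb-b2 passed limma's test, with adjusted p of 0.00428, 0.0154 and 0.0399. The B cell list summed to 31581 in transgenic against 19068 in wild-type cells in experiment 1, with 5 of 6 measured genes higher. Ms4a1 was lower (log2 ratio -0.14), and Cd79a was at the floor in both genotypes. In experiment 2 the B cell list summed to 18663 in transgenic against 16294 in wild-type cells, with 6 of 8 higher. Cd79b (-0.23) and Blnk (-0.02) were lower there. The mature single-positive list summed to 10552 in transgenic and 6006 in wild-type cells in experiment 1, where 5 of 6 measured genes were higher. Emb was lower (-0.99), and Il7r and S1pr1 were at the floor in both genotypes. In experiment 2 this list summed to 14109 in transgenic and 13348 in wild-type cells, with 4 of 6 higher. Emb (-0.53) and Cd5 (-0.02) were lower there, and Ccr7, Klf2 and S1pr1 were at the floor in both genotypes. Of the natural killer list only Gzma and Cd7 were above the floor, and both were higher in both experiments. The list's sums were 9039 in transgenic and 1771 in wild-type cells in experiment 1. In experiment 2 they were 1675 in transgenic and 766.4 in wild-type cells. At the floor in both genotypes were Gzmb and Klrb1c in experiment 1, and Gzmb, Klrd1, Ncr1 and Prf1 in experiment 2. Erythroid sums were 3505 in transgenic and 1258 in wild-type cells in experiment 1 and 2363 in transgenic and 898.1 in wild-type cells in experiment 2, with Alas2 and Epor at the floor. Of the measured erythroid genes, 4 were higher and 2 lower in experiment 1, and 2 were higher and 2 lower in experiment 2: Hba-a1 and Hbb-b2 were higher in both, and Car2 and Gata1 lower in both. Double-negative sums, made up mostly of Notch1, Notch3 and Dtx1, were 14583 in transgenic and 3035 in wild-type cells in experiment 1 and 4957 in transgenic and 3363 in wild-type cells in experiment 2, with Cd44 and Il2ra at the floor. Of these genes 3 were higher and 2, Kit and Cd34, lower in experiment 1, and 3 of 3 measured were higher in experiment 2. Myeloid sums were 3518 in transgenic and 3609 in wild-type cells in experiment 1 and 1591 in transgenic and 1086 in wild-type cells in experiment 2, and stromal and epithelial sums 223.4 in transgenic and 369.8 in wild-type cells, and 1329 in transgenic and 1546 in wild-type cells. Of the measured myeloid genes 3 of 6 and 3 of 5 were higher in transgenic cells in experiments 1 and 2, and of the stromal and epithelial genes 0 of 1 and 1 of 3. The part of these cells in the ratios below was not tested. In such bulk samples, fewer cells of a type and less RNA per cell cannot be told apart.

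None of the 7 genes passed the test of transgenic against wild type. For each gene, the log2 ratios of its probe sets above the floor were averaged within an experiment, and limma tested the mean of the 2 experiments against 0 over all 3237 genes, with Benjamini-Hochberg adjustment at 0.05. By this test 0 of 7 were called, against 0.154% of all genes, and at an unadjusted p under 0.05 the count was again 0 of 7, against 6.43% of all genes. Adjusted p ranged between 0.803 and 0.949. In the direction of their ratios, 4 of 7 (Bcl2, Bcl2l11, Bak1 and Bad) were higher in transgenic cells in both experiments, where the share of all genes was 23.9%. Mcl1 and Fas, 2 of 7, were lower in both, where the share of all genes was 30.4%, and Bcl2l1 had opposite signs. With experiment 2 near 0 for several of them, these counts depend on small differences: Bcl2l11 turned negative in experiment 2 with a floor of 50 or 200 or with its brightest probe set, and Bcl2l1 was positive in both with median scaling.

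Of the 23 probe sets, 20 were above the floor, all in both genotypes, and 3 were below it in both. Among the 20, 13 were higher and 7 lower in transgenic cells, with log2 ratios between -0.69 and 0.99 and a median of 0.21. A difference of 2-fold or more was found in 0 of the 20, while it was found in 16.3% of all probe sets above the floor on Mu11K A, 20.1% on Mu11K B and 1.53% on U74Av2. With 1 sample per genotype on each array type, this fold is a rule of size and not a test. Under other scalings Bak1 (median, quantile and loess) and Bcl2l1 (median) reached 2-fold with 1 probe set each.

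**Figure D1:**
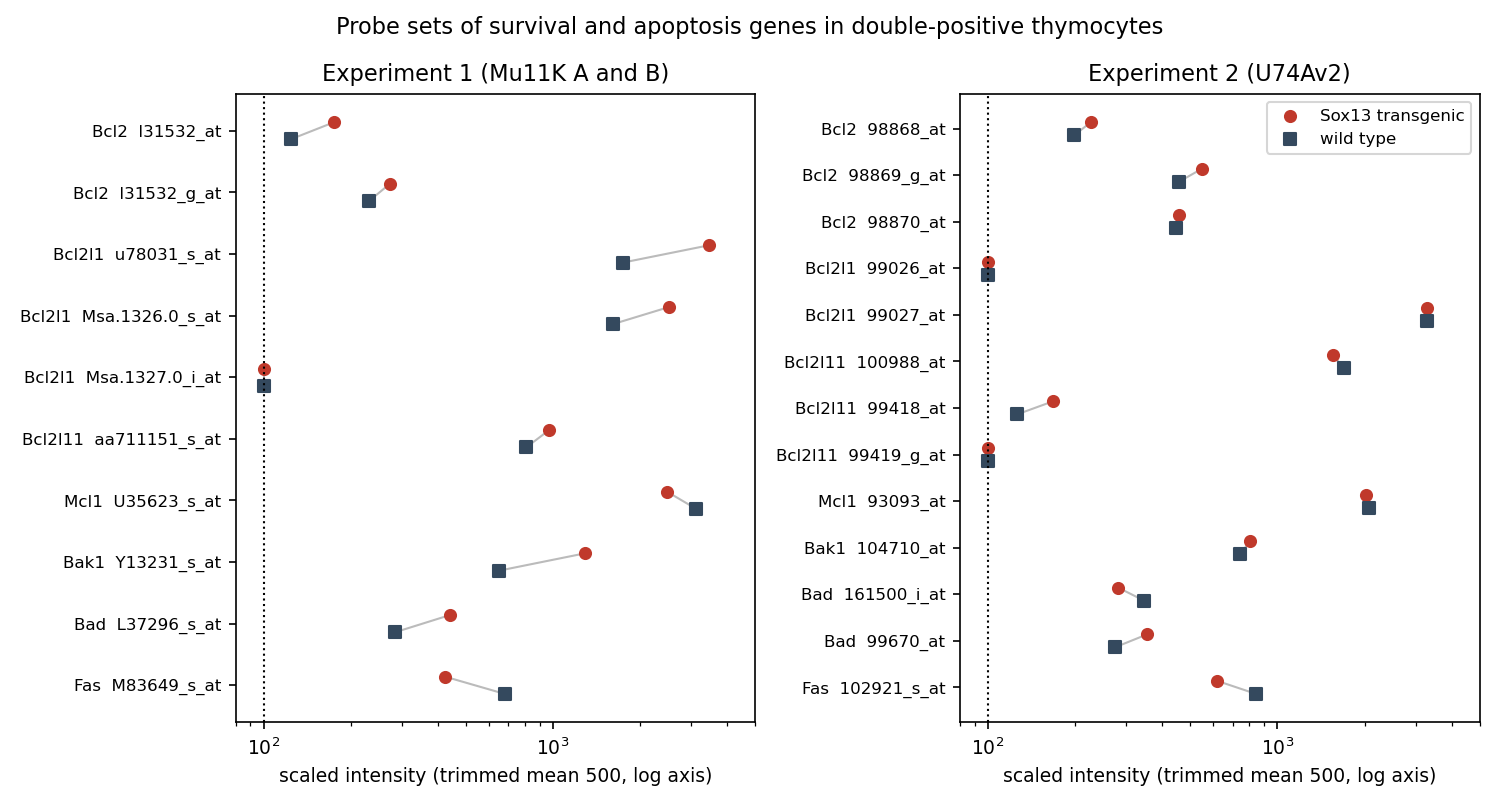
Scaled intensity (log axis) of each probe set in transgenic (circles) and wild-type (squares) DP thymocytes, 1 sample per genotype and array type, with the floor of 100 as a dotted line. Probe sets below the floor are drawn at it. The widest gaps are those of Bcl2l1 u78031_s_at, at 3452 in transgenic and 1744 in wild-type cells, and Bak1 Y13231_s_at, at 1286 in transgenic and 651.6 in wild-type cells, both in experiment 1.

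Among the anti-apoptotic genes, Bcl2 was a little higher in transgenic cells on every probe set. On Mu11K A, l31532_at stood at 175.5 in transgenic and 123.9 in wild-type cells, and l31532_g_at at 273.1 in transgenic and 231.4 in wild-type cells. On U74Av2, 98868_at stood at 226.8 in transgenic and 199.0 in wild-type cells, 98869_g_at at 548.9 in transgenic and 457.5 in wild-type cells, and 98870_at at 456.2 in transgenic and 444.4 in wild-type cells. All 5 probe sets thus gave the same direction, with log2 ratios between 0.04 and 0.50, and the direction also held under median, quantile and loess scaling. They share the same 2 pairs of samples and are not replicates. Averaged by experiment, the log2 ratios were 0.37 and 0.16, with a mean of 0.27 ± 0.34 (limma's SE, n = 2 experiments) and a limma adjusted p of 0.914. Every SE given here is limma's, which rests mostly on a variance shared over all genes. It is therefore not the spread of a gene's own 2 values. The 95% interval, -0.46 to 1.00 on the log2 scale, ran between 1.38-fold lower and 2.00-fold higher.

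Bcl2l1, which encodes BCL-XL, differed between the experiments. In experiment 1, u78031_s_at stood at 3452 in transgenic and 1744 in wild-type cells, a 1.98-fold difference, and Msa.1326.0_s_at at 2521 in transgenic and 1607 in wild-type cells, a 1.57-fold difference. Both lay high among their array's log2 ratios, at the 95.3 and 87.4 percentiles. In experiment 2, 99027_at stood at 3275 in transgenic and 3295 in wild-type cells, a log2 ratio of -0.01. The remaining Bcl2l1 probe sets, Msa.1327.0_i_at and 99026_at, were below the floor in both genotypes. The gene's log2 ratios were 0.82 and -0.01, with an SD of 0.58 between experiments, a mean of 0.40 ± 0.36 (SE, n = 2) and a limma adjusted p of 0.882. The difference of experiment 1 was thus not seen in experiment 2, and the mean was about the size of its error.

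Mcl1, whose short-lived protein keeps thymocytes alive at several stages, was lower in transgenic cells by a small margin. U35623_s_at stood at 2477 in transgenic and 3126 in wild-type cells in experiment 1, 1.26-fold lower. In experiment 2, 93093_at stood at 2026 in transgenic and 2071 in wild-type cells. The mean log2 ratio was -0.18 ± 0.34 (SE, n = 2) with a limma adjusted p of 0.949, and both probe sets lay within the middle of their arrays' ratios, at the 34.3 and 49.1 percentiles.

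Bak1 encodes the effector BAK, which forms pores in the outer mitochondrial membrane. Its Y13231_s_at stood at 1286 in transgenic and 651.6 in wild-type cells in experiment 1, 1.97-fold higher and at the 93.7 percentile of the array's ratios. In experiment 2, 104710_at stood at 806.1 in transgenic and 741.4 in wild-type cells, 1.09-fold higher. The mean log2 ratio, 0.55 ± 0.36 (SE, n = 2), was the highest of the 7 genes, with a limma adjusted p of 0.853. Its 95% interval ran between 1.17-fold lower and 2.50-fold higher, and the SD between experiments, 0.61, exceeded the mean.

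Of the BH3-only genes, Bcl2l11, which encodes BIM, showed differences in both directions. In experiment 1 aa711151_s_at stood at 967.7 in transgenic and 807.6 in wild-type cells. In experiment 2 100988_at stood at 1552 in transgenic and 1693 in wild-type cells, and 99418_at at 167.2 in transgenic and 125.7 in wild-type cells. The probe sets of experiment 2 therefore disagreed, with log2 ratios of -0.13 and 0.41, the second of them from intensities close to the floor, and 99419_g_at was below it in both genotypes. The gene's mean log2 ratio was 0.20 ± 0.34 (SE, n = 2) with a limma adjusted p of 0.947.

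Bad encodes a BH3-only protein that binds BCL2 and BCL-XL when it is not phosphorylated. L37296_s_at stood at 440.9 in transgenic and 284.4 in wild-type cells in experiment 1, 1.55-fold higher. In experiment 2 99670_at stood at 355.4 in transgenic and 274.8 in wild-type cells, but 161500_i_at at 281.9 in transgenic and 346.5 in wild-type cells. These opposite differences, with log2 ratios of 0.37 and -0.30, averaged to 0.04. For scale, the pooled SD between probe sets of the same gene was 0.27 on U74Av2 over 746 genes. The mean over experiments was 0.33 ± 0.35 (SE, n = 2) with a limma adjusted p of 0.892.

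Fas was the one gene of the 7 whose ratio lay well below 0 in both experiments. M83649_s_at stood at 422.4 in transgenic and 679.5 in wild-type cells in experiment 1, 1.61-fold lower and at the 20.2 percentile of that array's ratios. In experiment 2, 102921_s_at stood at 618.2 in transgenic and 842.0 in wild-type cells, 1.36-fold lower and at the 7.84 percentile. The log2 ratios of -0.69 and -0.45 had an SD of 0.17, and their mean was -0.57 ± 0.34 (limma's SE, n = 2), with a limma adjusted p of 0.803. That was the lowest adjusted p of the 7 genes and did not pass the threshold. The 95% interval ran between 2.46-fold lower and 1.12-fold higher. Fasl, the ligand, was below the floor on both of its probe sets in both genotypes.

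**Figure D2:**
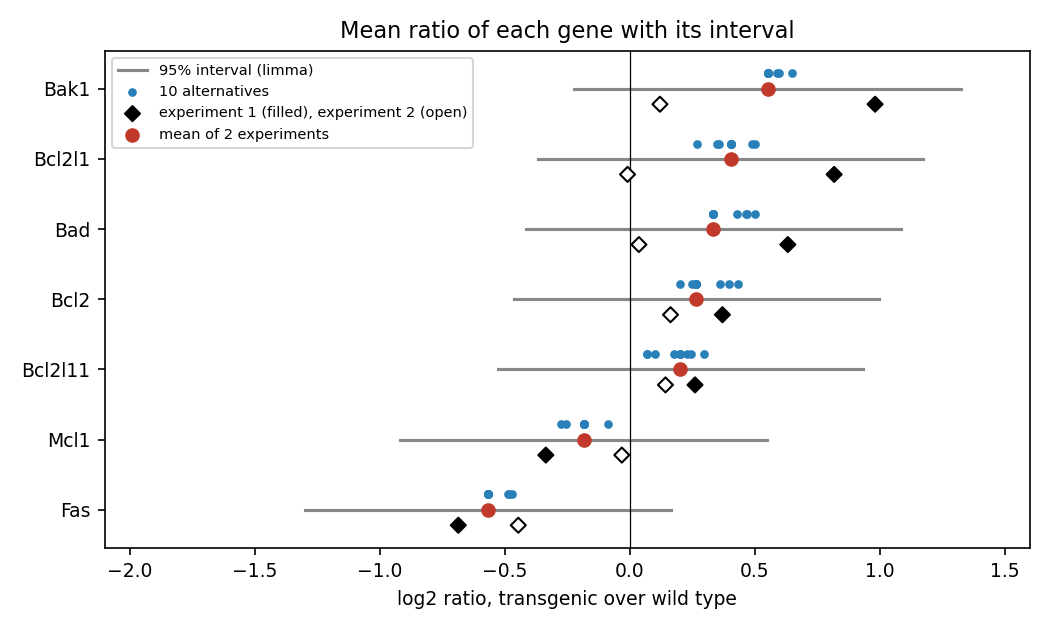
Mean log2 ratio of transgenic over wild type for each gene (red), with limma's 95% interval (grey line), the value of each experiment (filled and open diamonds) and the mean under 10 other settings (blue). Every interval crosses 0, and the values of experiment 1 lie farther from 0 than those of experiment 2 for all 7 genes.

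For all 7 genes the absolute log2 ratio was larger in experiment 1, as it was for 75.3% of all genes. The median absolute log2 ratio of the 7 genes was 0.63 in experiment 1 and 0.12 in experiment 2, where all genes had 0.44 and 0.17. In the plot of both ratios the 7 genes lie within the cloud of the other genes. Among the listed death and survival genes, the nearest to each in the pair of ratios, by Euclidean distance over the 2 experiments and among 42 candidates, were Daxx for Bcl2 (distance 0.07), Akt1 for Bcl2l1 (0.07), Fadd for Bcl2l11 (0.02) and Myb for Mcl1 (0.12). They were Bcl2l1 for Bak1 (0.21), Tnfrsf1a for Bad (0.11) and Stat5b for Fas (0.26). With 2 experiments such distances describe these samples only.

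**Figure D3:**
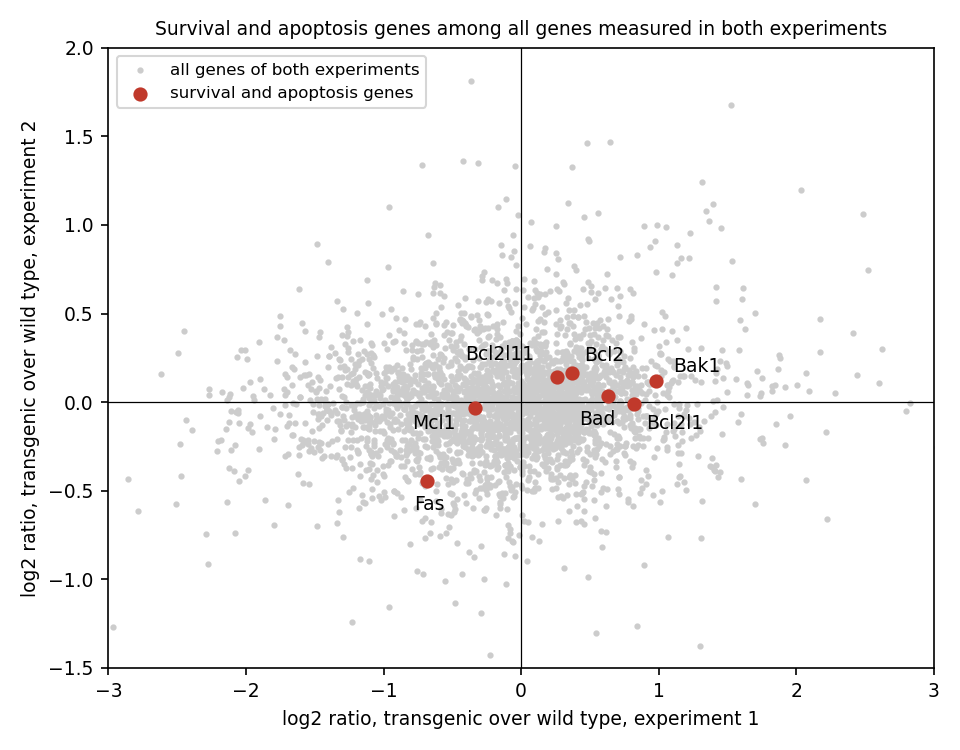
Log2 ratio of transgenic over wild type in experiment 1 (x axis) and experiment 2 (y axis) for the genes measured in both, of which 3222 are drawn and 15 lie beyond the axes. Fas, at -0.69 and -0.45, is farthest to the lower left of the 7 genes in red, and Bak1, at 0.98 and 0.12, farthest to the right.

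The wider machinery of cell death was described with 96 genes in 10 lists by role, the 8 genes included. Of these, 75 had a probe set of their own, 59 were above the floor and 43 were measured in both experiments. The limma test called 0 of the 43 (against 0.154% of all genes), and 6 of 43 had an unadjusted p under 0.05 (against 6.43%): Nr4a1, higher in transgenic cells, and Birc2, Birc3, Ccng1, Pik3r1 and Nr3c1, lower. Their lowest adjusted p was 0.769. The count of 6 depends on the setting: it was 3 with median or quantile scaling or with either other filter on low values, 2 with a floor of 50 or 200, 1 with loess scaling and 0 with the brightest probe sets or in the unpaired fit. In both experiments 14 were higher and 13 lower, against 23.9% and 30.4% of all genes, and 16 had opposite signs. The median mean log2 ratio of the 43 was 0.08, where that of all genes was -0.04. In experiment 1, 3 of 45 measured genes were 2-fold higher and 5 were 2-fold lower, against 5.25% and 11.7% of all genes. In experiment 2 no gene of 57 reached 2-fold in either direction, against 0.855% higher and 0.446% lower.

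Further BCL2 family genes were measured. Bcl2l2, an anti-apoptotic relative measured in experiment 2 alone, had a log2 ratio of -0.07. Bok, a relative of BAX, stood at 174.1 in transgenic and 252.5 in wild-type cells in experiment 2, a log2 ratio of -0.54. Bid, the BH3-only protein that links death receptors to mitochondria, had log2 ratios of 0.11 and 0.29. All 3 BH3-only genes measured in both experiments, Bcl2l11, Bad and Bid, were higher in transgenic cells in both, with the reversal of Bcl2l11 under other settings given above, and none passed the test.

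The receptors and adaptors gave no common direction. Of 3 death receptor genes measured in both experiments, Fas was lower in both, and Tnfrsf1a and Tnfrsf1b had opposite signs. Of 5 adaptor genes measured in both, 2 were higher in both, 1 was lower in both and 2 had opposite signs. Cflar encodes c-FLIP, which blocks caspase-8 at the receptor. It stood at 128.3 in transgenic and 241.3 in wild-type cells in experiment 1 and at 137.6 in transgenic and 168.6 in wild-type cells in experiment 2, with a limma adjusted p of 0.803. The adaptor Fadd had log2 ratios of 0.25 and 0.13, and Daxx, which binds FAS, 0.37 and 0.23. In experiment 2 alone, Casp8 had a log2 ratio of 0.24, Tradd, the adaptor of the TNF receptor, -0.23, and the cytokine gene Lta -0.29. Of 7 apoptosome and caspase genes measured in both, 2 were higher in both, none was lower in both and 5 had opposite signs. The 2 were Casp6, an executioner caspase, with 0.05 and 0.18, and Htra2, a mitochondrial protease, with 0.46 and 0.02. In experiment 2 the probe sets of Htra2 disagreed, with log2 ratios of 0.43 and -0.40, which averaged to 0.02. The first stood at 302.6 in transgenic and 223.9 in wild-type cells. The second stood at 1471 in transgenic and 1934 in wild-type cells. Counting Htra2 as higher in both experiments rests on this average. The nuclease gene Dffb and its inhibitor Dffa had -0.27 and -0.08 in experiment 2.

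The inhibitors of apoptosis bind caspases or keep receptor complexes from killing the cell. Birc2 encodes cIAP1 and stood at 247.2 in transgenic and 469.8 in wild-type cells in experiment 1, and at 371.0 in transgenic and 579.9 in wild-type cells (geometric means of its probe sets) in experiment 2. Birc3 encodes cIAP2 and was at the floor in transgenic cells and at 253.0 in wild-type cells in experiment 1, at least 2.53-fold lower, and at 340.1 in transgenic and 417.7 in wild-type cells in experiment 2. Both were lower in both experiments and neither passed, with a limma adjusted p of 0.769 each. In experiment 2, 4 of 5 genes of the list were lower in transgenic cells, a count that held under median, quantile and loess scaling but was 3 of 5 with a floor of 50 and 3 of 4 with a floor of 200. The share of all genes lower in experiment 2 was not computed, and their median log2 ratio there was -0.02. Birc6 counted among the lower genes with only -0.08. For Xiap, the strongest direct caspase inhibitor, only 1 probe set exceeded the floor, and its other probe sets were below it in both genotypes. That probe set, close to the floor, stood in experiment 2 at 130.8 in transgenic and 173.8 in wild-type cells. Birc5, which encodes survivin and acts in cell division, was the exception, at 2814 in transgenic and 1974 in wild-type cells.

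Trp53, the gene of p53, had no probe set of its own. Among the listed p53 targets, 3 of 5 genes measured in both experiments were lower in both, where the share of all genes was 30.4%. Ccng1, which encodes cyclin G1, stood at 139.5 in transgenic and 580.1 in wild-type cells in experiment 1, 4.16-fold lower, but at 277.3 in transgenic and 285.7 in wild-type cells in experiment 2. Mdm2, the ubiquitin ligase of p53, had a geometric mean of 430.3 in transgenic and 945.6 in wild-type cells over its probe sets in experiment 1, and 941.1 in transgenic and 984.3 in wild-type cells in experiment 2. Each large difference in this list was thus found in experiment 1 alone. Cdkn1a, the cell cycle inhibitor p21, had log2 ratios of -0.11 and -0.02, with probe sets close to the floor in both experiments. Ei24 had 0.44 and 0.15, and Gadd45b, measured in experiment 1 alone, 0.01.

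Regulators of thymocyte survival went both ways, with 2 of 10 genes higher in both experiments, 3 lower in both and 5 of opposite sign. Stat5b, which carries cytokine signals, stood at 631.1 in transgenic and 900.6 in wild-type cells in experiment 1 and at 855.8 in transgenic and 1329 in wild-type cells in experiment 2, with a limma adjusted p of 0.803. Pik3r1, the regulatory subunit of PI3-kinase, was at the floor in transgenic cells and at 276.2 in wild-type cells in experiment 1, at least 2.76-fold lower, and had a log2 ratio of -0.22 in experiment 2. Jak3 had log2 ratios of 0.51 and 0.05, the kinase gene Pim1 0.09 and 0.07, and Nfkbia, the inhibitor of NF-kappaB, -0.03 and -0.01. In experiment 2 alone, Nfkb2 had 0.22, and Il7r stood at 102.6 in transgenic cells and at the floor in wild-type cells.

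Genes of negative selection and of the glucocorticoid response bear on the death of DP cells too, and of 4 measured in both experiments 2 were higher in both and 2 lower in both. Nr4a1, an orphan nuclear receptor induced by strong receptor signals, stood at 2214 in transgenic and 749.1 in wild-type cells in experiment 1, 2.96-fold higher, but at 315.1 in transgenic and 287.9 in wild-type cells in experiment 2, with a limma adjusted p of 0.774. Nr3c1, the glucocorticoid receptor, was at the floor in transgenic cells and at 246.2 in wild-type cells in experiment 1, at least 2.46-fold lower, and had a log2 ratio of -0.33 in experiment 2. Its target Fkbp5 had log2 ratios of 0.54 and 0.23, and Egr2, an early response gene, -0.30 and -0.27. Pdcd1, which encodes PD-1, stood at 135.6 in transgenic cells and at the floor in wild-type cells in experiment 1, and Txnip had a log2 ratio of -0.24 in experiment 2.

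**Figure D4:**
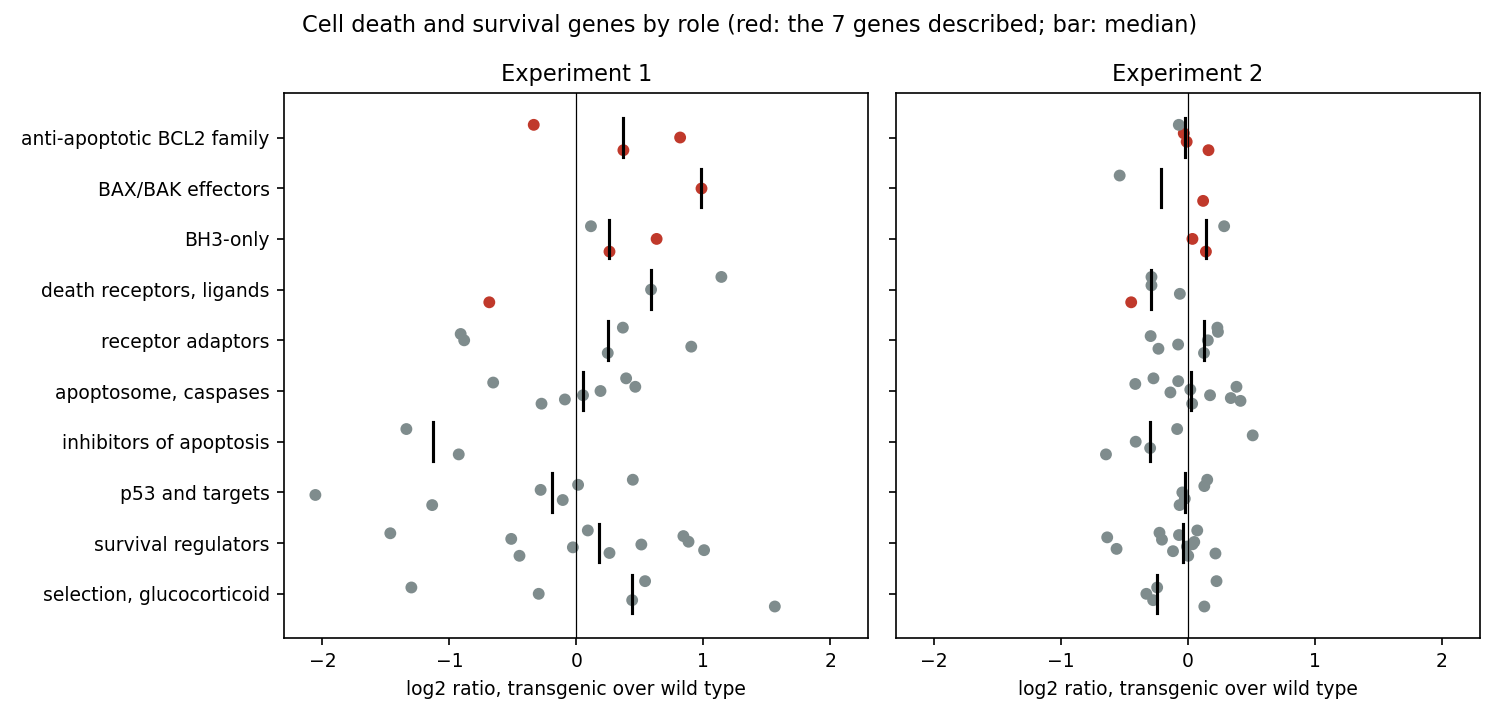
Log2 ratio of transgenic over wild type for each listed gene above the floor, by role, in experiment 1 (left, 45 genes) and experiment 2 (right, 57 genes), with the 7 genes described in red and the median of each list as a bar. Ratios spread widely in experiment 1, down to -2.06 for Ccng1, and lie between -0.64 for Birc2 and 0.51 for Birc5 in experiment 2.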

How the data were processed

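RNA of sorted DP thymocytes was measured on 6 Affymetrix arrays. The deposited values are linear intensities, 1 per probe set. The authors analysed them with Microarray Analysis Software versions 4 and 5 per the series text, and MAS5 is named for U74Av2 per the submitters' processing notes. The version behind the Mu11K values and the target of any scaling by the authors are not stated in the labels. Mu11K intensities were negative in 17.3% to 29.2% of probe sets, and U74Av2 intensities in none. Control probe sets (55, 55 and 66 on Mu11K A, Mu11K B and U74Av2) and 21 Mu11K A probe sets without a wild-type value were left out.

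Here the trimmed mean (2% off each end) of every array was set to 500, values were floored at 100 and put on the log2 scale. Probe sets were named from the platform annotation; those with several symbols or none were not used for genes. A gene's ratio averages those of its probe sets that exceed the floor in either genotype. limma 3.58.1 (R 4.3.3) tested the 2 ratios against 0, two-sided, with Benjamini-Hochberg adjustment over 3237 genes. Its shared variance (prior, 12.1 degrees of freedom) outweighs a gene's own spread. Transgenic and wild-type samples are paired by array type, which is the ratio itself. With so few arrays, their number sets the precision.

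The 8 genes, the role lists, the markers and the naming rule were chosen with earlier results of these data known. The rule names the 8 genes, Sox13, up to 3 genes per list and direction with the same sign in both experiments, by the smaller absolute log2 ratio, and up to 2 per list measured in 1 experiment with the largest absolute log2 ratio. Tnfrsf1a, Tnfrsf1b, Fasl, Akt1 and Myb were named besides, the first 3 after their values were seen and the others as nearest genes. Alternatives changed the floor, the filter on low values, the scaling, the choice of probe sets and the pairing, and left out each experiment. Promoter windows are RefSeq sequences of GRCm38.p6.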

Additional observations from a re-analysis of the deposited data

How the results depend on the processing

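Over 10 alternatives, all 70 mean log2 ratios of the 7 genes kept their direction and stayed short of the threshold, with adjusted p between 0.741 and 0.999, and neither the 7 genes nor the role lists gained a call in limma. Many of the 70 means could not change. The unpaired fit, the filter to genes above the floor everywhere and the probe sets of several symbols returned the main mean for all 7 genes. Mcl1, Bak1 and Fas, with 1 probe set per experiment, also kept it under both other floors, with no filter and with the brightest probe set. Such settings are no check on the direction of those means. The means ranged over 0.20 to 0.43 for Bcl2, 0.27 to 0.50 for Bcl2l1, 0.07 to 0.30 for Bcl2l11, -0.28 to -0.09 for Mcl1, 0.55 to 0.65 for Bak1, 0.33 to 0.50 for Bad and -0.57 to -0.47 for Fas. With either experiment left out there is no test. The other experiment's value was 0.16 or 0.37 for Bcl2, -0.01 or 0.82 for Bcl2l1, 0.14 or 0.26 for Bcl2l11, -0.03 or -0.34 for Mcl1, 0.12 or 0.98 for Bak1, 0.04 or 0.63 for Bad and -0.45 or -0.69 for Fas, so the means of Bcl2l1, Mcl1, Bak1 and Bad came mostly from experiment 1. The number of probe sets of the 7 genes at 2-fold or more was 0 as reported, 2 with median scaling and 1 each with quantile and loess scaling. Median scaling moved the median of all genes in experiment 1 by 0.17 and quantile scaling by 0.11. The number of genes called over all genes was 5, all higher. It was 0 with a floor of 50 (181 at an unadjusted p under 0.05), 0 with no filter (231), 2 over genes that exceed the floor everywhere, 27 with median scaling, 15 with quantile scaling, 1 with the brightest probe set and 9 with probe sets of several symbols. It was 0 in the unpaired fit with no replicate block (9 at an unadjusted p under 0.05). The cause of these changes was not tested. Probe sets near the floor, such as Bcl2 l31532_at and Bcl2l11 99418_at, are the least certain. Each gene's 95% interval includes its value in experiment 1. The interval is centred on a mean that contains this value, and its width rests mostly on the shared variance. It therefore cannot show whether the experiments agree.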
